A study of Mus musculus with 6 samples.

Results

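The miR-181 family was followed in 6 small RNA libraries of LPS-stimulated Mes23.5 cells. Its members are the deposited sequences named miR-181a, miR-181b, miR-181c or miR-181d, from either arm of the hairpin and with any ends. They came to 9 of the 756 features in the table, from 12 of its 823 rows, with rows of equal name and sequence added together. The SIX2_EV group holds 3 libraries of cells given extracellular vesicles from microglia that overexpress the transcription factor SIX2, and the control_EV group holds 3 libraries of cells given vesicles from control microglia. Both groups were stimulated with LPS, a component of the bacterial cell wall, for 24 h. Mes23.5 is a dopaminergic hybrid line made from mouse neuroblastoma and rat midbrain cells. The libraries are labelled as mouse, and the growth protocol names BV2, a mouse microglial line. The labels do not say how SIX2 was overexpressed, how many vesicles were given or whether the libraries came from separate cultures. The p-values therefore reflect only how far these 6 libraries scatter, and that scatter may be technical. The labels give no group without vesicles, so what the cells held beforehand cannot be told apart from what vesicles brought.

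MicroRNAs are short RNAs cut from hairpins. Loaded into an Argonaute protein, they pair with messenger RNAs mainly through the seed, bases 2 to 8, and lower their translation and stability. The miR-181 family is conserved across vertebrates and is known for setting the sensitivity of developing T cells to antigen, for its abundance in brain, and for restraining messenger RNAs of the BCL2 family and of mitochondrial upkeep. In glia it has been tied to responses to inflammatory stimuli.

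Deposited reads per library ranged from 179621 to 232635 in SIX2_EV and from 253037 to 421279 in control_EV. Mouse- or rat-named mature miRNAs with a mouse position took 13.37%, 6.52% and 31.65% of them in SIX2_EV libraries 1 to 3, against 30.64%, 55.06% and 68.49% in control_EV libraries 1 to 3. Library 3 of each group had the highest share. A level therefore depends on what it is scaled to, and levels are given below on 3 scales. CPM after TMM scaling is relative to an effective library size set by the bulk of features. The other scales are RPM of all deposited reads and RPM of the mature reads just defined. The TMM factors, which multiply the library size, were 0.5862, 0.3077 and 1.2008 in SIX2_EV libraries 1 to 3. In control_EV libraries 1 to 3 they were 1.0658, 1.5877 and 2.7285.

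The sequences show which family members the libraries could tell apart. Each is given as deposited, with T for U and the seed in capitals.
rno-miR-181a-5p: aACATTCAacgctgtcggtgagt
rno-miR-181b-5p_R+1: aACATTCAttgctgtcggtgggtt
rno-miR-181c-5p: aACATTCAacctgtcggtgagt
rno-miR-181d-5p_R+1: aACATTCAttgttgtcggtgggtt
mdo-miR-181a-5p_R+3_1: aACATTCAacgctgtcggtgagttat
mdo-miR-181a-5p_R+3_2: aACATTCAacgctgtcggtgagtttt
mdo-miR-181b-5p_R+3: aACATTCAttgctgtcggtgggttat
rno-miR-181a-1-3p: aCCATCGAccgttgattgtacc
rno-miR-181a-2-3p_R+3_1ss7AG: aCCACCGAccgttgactgtacc

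All 7 sequences of the 5p arm share the seed ACATTCA, and 0 other features in the table carry it. The pair of 3p sequences have a seed each, CCATCGA and CCACCGA, again with 0 other features. Counted from 1 at the 5′ end, miR-181b-5p differs from miR-181a-5p by A9T, C10T and A21G and is 1 base longer at its 3′ end, with 24 bases against 23. In turn, miR-181d-5p differs from miR-181b-5p by C12T alone. miR-181c-5p lacks the base at position 11 of miR-181a-5p and is 22 bases long, against 23. The differences thus lie outside the seed. Between the 3p arms, miR-181a-2-3p differs from miR-181a-1-3p by T5C and T16C, and the first of these lies in the seed.

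The names are those of other species, rat for 6 features and opossum for 3. The sequences were compared with mouse entries alone, so the comparison does not tell mouse origin from rat origin. Of the 9 sequences, 5 were identical to a RefSeq mouse mature miRNA (GRCm38.p6). Among these were rno-miR-181b-5p_R+1 and rno-miR-181a-2-3p_R+3_1ss7AG, whose suffixes record differences from the rat entry and not from the mouse one. The other 4 continued past the mouse 3′ end. The single extra base of miR-181d-5p is that of the mouse hairpin. The opossum-named forms of miR-181a-5p carry 3 extra bases. The first 2 match the mouse hairpins in the form ending in TTT, and the first 1 in the form ending in TAT. In turn, the opossum-named form of miR-181b-5p carries 2, with 0 matching.

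Mouse has 6 genes of the family in 3 pairs. In GRCm38, Mir181a-1 lies at chr1:137966455-137966541 and Mir181b-1 at chr1:137966639-137966718, both on the plus strand and 97 bases apart. GENCODE M21 places both in an intron of the non-coding transcript Gm4258, and Mir181b-1 also within an exon of the non-coding RNA A430106G13Rik, which overlaps part of Mir181a-1. Mir181a-2 at chr2:38852735-38852810 and Mir181b-2 at chr2:38853830-38853918, 1019 bases apart on the plus strand, lie in an intron of Nr6a1, a nuclear receptor gene transcribed from the opposite strand. Mir181d at chr8:84178716-84178787 and Mir181c at chr8:84178873-84178961, 85 bases apart on the minus strand, lie in an intron of Nanos3, a germ cell gene of the same strand. On the opposite strand, GENCODE M21 also has Mir181a-1 and Mir181b-1 in an intron of the non-coding RNA Gm26936. It has Mir181b-2 within an exon of Gm44144, again on the opposite strand. The deposited rows give other positions on the same chromosomes, in a build that is not named, and those are not used here.

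The hairpins of both miR-181a loci, from RefSeq with U as given there and the mature arms in capitals, show why 5p reads cannot be assigned to a locus while 3p reads can. The 5p arms of Mir181a-1 and Mir181a-2 are the same, and their 3p arms are not. Mir181b-1, the neighbour of Mir181a-1, is set beside them to show the other 5p arm of that pair.
Mir181a-1: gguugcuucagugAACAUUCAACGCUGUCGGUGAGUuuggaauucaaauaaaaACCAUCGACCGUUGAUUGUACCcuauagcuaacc
Mir181a-2: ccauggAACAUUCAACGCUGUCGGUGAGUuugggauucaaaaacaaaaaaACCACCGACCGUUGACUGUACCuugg
Mir181b-1: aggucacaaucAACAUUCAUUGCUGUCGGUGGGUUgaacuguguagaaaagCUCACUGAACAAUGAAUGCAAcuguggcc

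The deposited rows split the reads of miR-181a-5p and of miR-181b-5p evenly over chromosomes 1 and 2, so their sums are the counts and the split carries no information on the locus.

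Detection differed sharply between members. Only miR-181a-5p and miR-181b-5p were above 0 in all 6 libraries, and 4 of the 9 features were above 0 in the third control_EV library alone. That library, the deepest, held all 9, while the others held 2 to 5. Almost no value above 0 in the table lies under 5 reads, so a 0 is read as listed at 0 and not as absence.

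**Figure D1:**
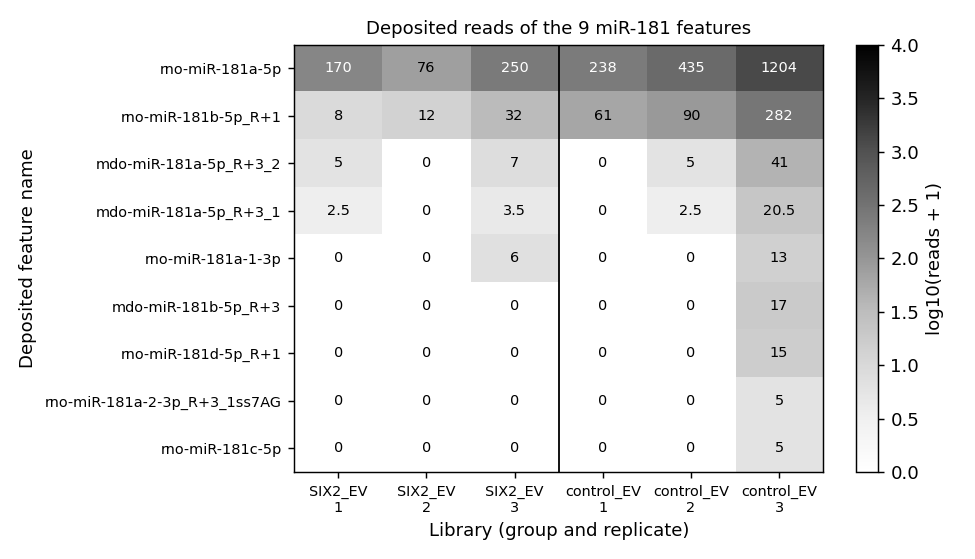
Deposited reads of each miR-181 feature (rows) in each library (columns, SIX2_EV left of the line and control_EV right), with shading by log10(reads + 1). miR-181a-5p and miR-181b-5p fill their rows, while 4 features have reads in the third control_EV library alone.

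miR-181a-5p, the main form, had 170, 76 and 250 reads in the SIX2_EV libraries, against 238, 435 and 1204 reads in the control_EV libraries. On the TMM scale these are 1617, 1064 and 1137 CPM in SIX2_EV, against 870.2, 1089 and 1077 CPM in control_EV. The first SIX2_EV library was the highest, and the groups overlapped. The means were 1273 ± 300.4 CPM in SIX2_EV, against 1012 ± 123 CPM in control_EV (SD, n = 3). The log2 fold change, 0.33 with an SE of 0.27, did not pass edgeR's quasi-likelihood test over 319 features (adjusted p 0.670). It was 0.11 without the first SIX2_EV library.

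miR-181b-5p, which shares the seed and the clusters, had 8, 12 and 32 reads in the SIX2_EV libraries, against 61, 90 and 282 reads in the control_EV libraries. These are 76.1, 168 and 145.5 CPM in SIX2_EV, against 223, 225 and 252 CPM in control_EV. Every SIX2_EV library lay below every control_EV library, as it did for 16.9% of the 319 tested features. The means were 129.9 ± 47.9 CPM in SIX2_EV, against 233.5 ± 16.2 CPM in control_EV (SD, n = 3). The log2 fold change of -0.85 (SE 0.59) did not pass the test (adjusted p 0.603, edgeR).

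These 2 features were the members that passed the filter on low counts, and 0 of them passed an adjusted p of 0.05. The same held for 0% of all 319 tested features in edgeR, of which 39 (12.2%) had an unadjusted p under 0.05, with neither member among them. DESeq2 called 20 features (6.27%). The count in limma-voom was 0, and 62 features there had an unadjusted p under 0.05. Neither member was called by DESeq2 or limma-voom. Over the 319 features the median log2 fold change was -0.30, between the values of the pair.

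The remaining 7 features were too sparse to test. miR-181a-1-3p, the opposite arm from chromosome 1, had 0, 0 and 6 reads in SIX2_EV, against 0, 0 and 13 reads in control_EV. miR-181a-2-3p, its counterpart from chromosome 2, had 5 reads in the third control_EV library, so each miR-181a locus had reads of its own there. miR-181c-5p and miR-181d-5p, from the chromosome 8 pair, had 5 and 15 reads in the same library and were listed at 0 in the other 5.

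These zeros say little at this depth. At the level of the third control_EV library on the TMM scale, 13.4 CPM, miR-181d-5p would have given 1.41, 0.958 and 2.95 reads in SIX2_EV libraries 1 to 3, against 3.67 and 5.36 reads in control_EV libraries 1 and 2. All but the last are under the 5 reads from which a sequence is listed. For miR-181c-5p at 4.47 CPM all of these values are under 2 reads. A difference between the groups was not detectable for either.

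The longer forms of miR-181a-5p had 5, 0 and 7 reads for the one ending in TTT in SIX2_EV, against 0, 5 and 41 in control_EV. The form ending in TAT had 2.5, 0 and 3.5 in SIX2_EV, against 0, 2.5 and 20.5 in control_EV. In every library the second value equals that of each locus row of the first, so the same reads may stand under both names. Taken as deposited, these forms made up 4.22% and 4.03% of miR-181a-5p reads in SIX2_EV libraries 1 and 3, against 1.69% and 4.86% in control_EV libraries 2 and 3. The groups overlapped (exact two-sided permutation p of 1 with 2 libraries a group, where the smallest possible is 0.333). The longer form of miR-181b-5p had 17 reads in the third control_EV library and 0 elsewhere.

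Summed over its forms, miR-181a-5p ranked 44 of 357 mouse- or rat-named mature miRNAs by mean CPM, and miR-181b-5p ranked 118. miR-181a-1-3p and miR-181d-5p ranked 267 and 303, and miR-181a-2-3p and miR-181c-5p shared rank 348. The order from miR-181a-5p to miR-181b-5p held in each library, beyond counting error. Among miR-181a-1-3p, miR-181d-5p, miR-181a-2-3p and miR-181c-5p no order can be drawn, since each rests on 1 or 2 libraries.

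The family as a whole took 185.5, 88 and 298.5 reads in SIX2_EV, against 299, 532.5 and 1602.5 reads in control_EV. On the TMM scale it summed to 1451 ± 278 CPM in SIX2_EV, against 1286 ± 175 CPM in control_EV (SD, n = 3). Set against mature reads it came to 0.622% ± 0.135 in SIX2_EV, against 0.439% ± 0.101 in control_EV (SD, n = 3), and the groups overlapped in both measures. In RPM of deposited reads the order of the means was the opposite, with 1010 ± 621 in SIX2_EV, against 2356 ± 1339 in control_EV (SD, n = 3), and the groups again overlapped. On the scale of mature reads, here and below, the opossum-named forms count in the sums but not among the mature reads. Compared with other families with several loci, the let-7 and miR-98 family summed to 20822 ± 2435 CPM in SIX2_EV, against 23869 ± 1681 CPM in control_EV. The miR-30 family summed to 11776 ± 3734 CPM and the miR-29 family to 1256 ± 212 CPM in SIX2_EV, against 13980 ± 974 CPM and 1651 ± 463 CPM in control_EV (SD, n = 3 for each). The miR-181 family was thus near the miR-29 family in level and well under the other families. Of these 4 families it alone had a higher mean CPM in SIX2_EV, a difference that was not tested and that has the other sign in RPM of deposited reads.

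How miR-181a-5p compared between groups depended on the scale. In RPM of deposited reads, its summed forms had 988, 327 and 1414 in SIX2_EV, against 924, 1749 and 3004 in control_EV. In RPM of mature reads they had 7392, 5012 and 4469 in SIX2_EV, against 3015, 3176 and 4386 in control_EV. On the first scale the groups overlapped with a lower mean in SIX2_EV. On the second each SIX2_EV library was above each control_EV library, by a narrow gap between the libraries numbered 3. Of 122 mouse- or rat-named mature miRNAs above 0 in all libraries, 9.84% were higher in every SIX2_EV library on this scale, among them miR-181a-5p, miR-183-5p, let-7b-5p and miR-379-5p, named after their values were seen. The log2 fold change of miR-181a-5p in edgeR was -1.08 with total counts and 0.67 with mature reads as library size, where the medians of all tested features were -1.54 and 0.03, so it stood above the median feature in both.

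miR-181b-5p had 44.5, 51.6 and 174 RPM of deposited reads in SIX2_EV, against 237, 356 and 710 in control_EV. In RPM of mature reads it had 333, 791 and 549 in SIX2_EV, against 773, 646 and 1036 in control_EV. The groups were apart on the first scale, where 32.8% of the same 122 miRNAs were lower in every SIX2_EV library, and overlapped on the second. Its log2 fold change was -2.24 with total counts and -0.53 with mature reads as library size.

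**Figure D2:**
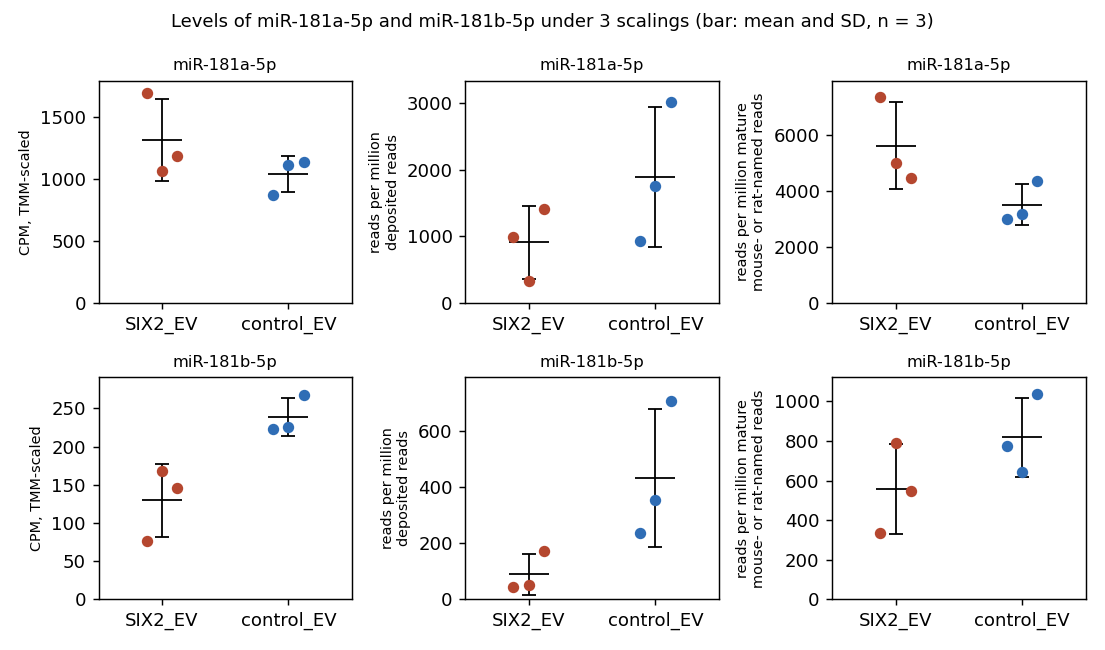
Levels of miR-181a-5p (top) and miR-181b-5p (bottom), summed over forms, in SIX2_EV and control_EV libraries on 3 scales: TMM-scaled CPM, RPM of deposited reads and RPM of mature reads. Points are libraries and bars are the mean and SD (n = 3). miR-181a-5p is lower in SIX2_EV by the mean on the middle scale and higher on the others, whereas the mean of miR-181b-5p is lower in SIX2_EV on each.

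With forms summed for every miRNA, edgeR gave a log2 fold change of 0.37 (SE 0.27, adjusted p 0.639) for miR-181a-5p and of -0.85 (SE 0.60, adjusted p 0.639) for miR-181b-5p, over 299 names. Exact two-sided permutation tests of their CPM gave p = 0.2 and p = 0.1, or 0.2 for both after Benjamini-Hochberg adjustment over these tests. With 3 libraries against 3 the smallest possible p is 0.1.

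A ratio within a library does not depend on scaling. miR-181b-5p over miR-181a-5p was 0.0451, 0.158 and 0.123 in SIX2_EV, against 0.256, 0.203 and 0.236 in control_EV. The groups did not overlap. The mean log2 ratio was -3.39 ± 0.96 in SIX2_EV and -2.11 ± 0.17 in control_EV (SD, n = 3), a difference of -1.27 or 0.414-fold. The exact two-sided permutation p was 0.1, the smallest possible, and 0.3 after adjustment over the 3 ratios tested.

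Expressed as a share of both, miR-181b-5p took 4.31% (95% Clopper-Pearson interval 1.88 to 8.30), 13.6% (7.25 to 22.6) and 10.9% (7.62 to 15.1) in SIX2_EV libraries 1 to 3. In control_EV libraries 1 to 3 it took 20.4% (15.98 to 25.4), 16.9% (13.8 to 20.4) and 19.1% (17.2 to 21.2). The intervals cover counting error only. That of the second SIX2_EV library, with 12 reads of miR-181b-5p, overlapped all those of control_EV, and that of the first SIX2_EV library overlapped none. Without the first SIX2_EV library the log2 difference was -0.73, and the groups remained apart.

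**Figure D3:**
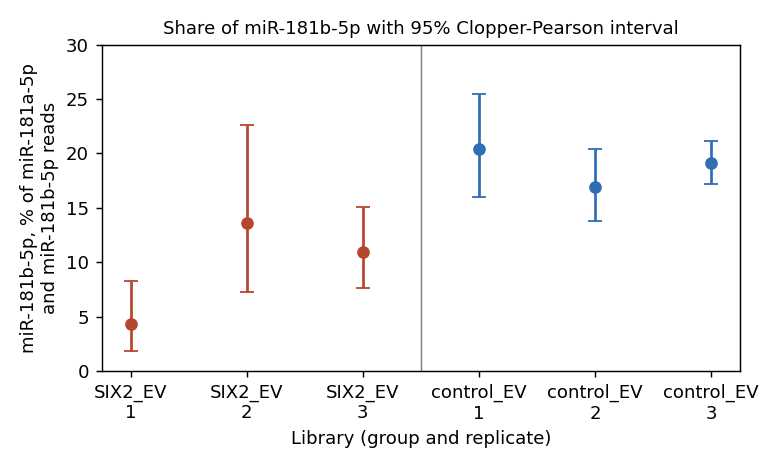
miR-181b-5p as a percentage of the reads of miR-181a-5p and miR-181b-5p in each library, with 95% Clopper-Pearson intervals for counting error. The SIX2_EV libraries lie between 4.31% and 13.6% and the control_EV libraries between 16.9% and 20.4%.

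This lower ratio was shared with many miRNAs. Besides miR-181a-5p, 121 mouse- or rat-named mature miRNAs were above 0 in all libraries, miR-181b-5p among them, and 45 (37.2%) had a lower ratio to miR-181a-5p in every SIX2_EV library than in any control_EV library, and 0 had a higher one. The median log2 difference of these ratios was -0.62, and 15 miRNAs were lower than miR-181b-5p. Set against miR-21-5p, the most abundant mature miRNA on the inflammation list, miR-181b-5p came to 0.181%, 0.428% and 0.220% in SIX2_EV, against 0.416%, 0.340% and 0.488% in control_EV, a comparison chosen after its values were seen, in which the groups overlapped. miR-181a-5p came to 4.03%, 2.71% and 1.79% of miR-21-5p in SIX2_EV, against 1.62%, 1.67% and 2.06% in control_EV. These overlapped too, with a log2 difference of 0.60 and an exact permutation p of 0.2 (0.3 adjusted). The difference was 0.31 without SIX2_EV replicate 1 and 0.90 without SIX2_EV replicate 3.

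The passenger arm could be compared in the third libraries alone. There the 3p reads of both miR-181a loci came to 2.30% of miR-181a-5p in SIX2_EV and 1.42% in control_EV, with 1 library each and so no test.

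**Figure D4:**
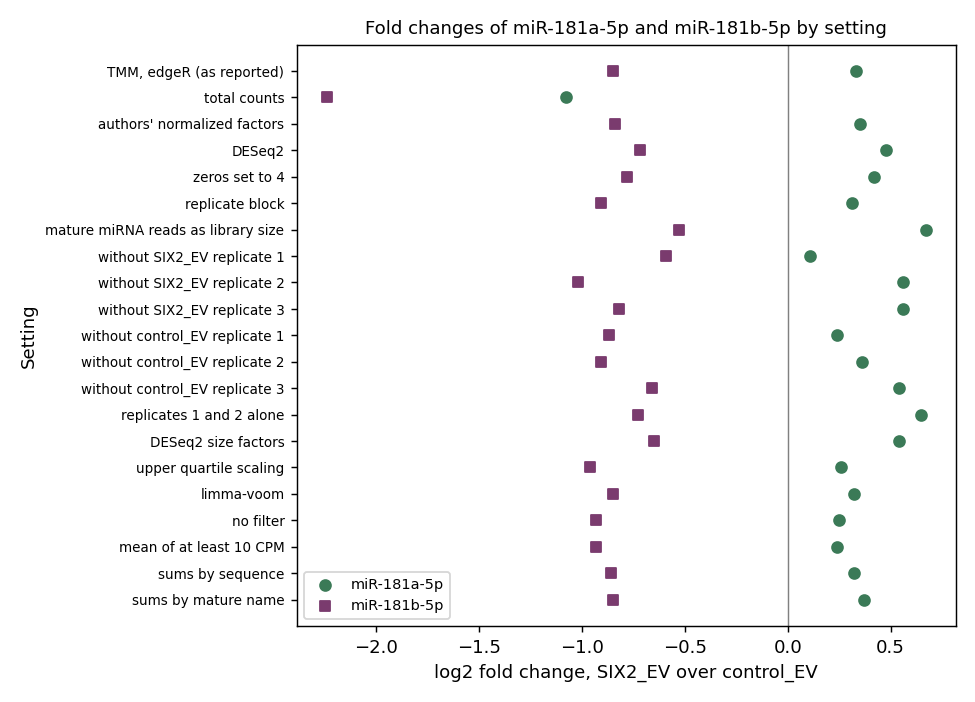
Log2 fold change of miR-181a-5p (circles) and miR-181b-5p (squares), SIX2_EV over control_EV, under each setting tried. miR-181b-5p is below 0 under all settings shown, while miR-181a-5p is above 0 except with total counts, at -1.08, and the pair keep their order throughout.

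The features whose pattern was most like that of miR-181a-5p, by Pearson's r of log2(CPM + 1) over the 6 libraries and among 317 features, were miR-199a-5p under a rat name and under a hamster name (r = 0.937 for both, with equal values), miR-379-5p (0.905), miR-221-3p (0.845) and a form of miR-10b-5p (0.725). The points share libraries and scaling, and no test was made. Each miR-199a-5p feature had 494 ± 167 CPM in SIX2_EV, against 374 ± 44.7 CPM in control_EV. The level of miR-221-3p, which acts in proliferation and in vascular cells, was 2520 ± 552 CPM in SIX2_EV, against 2395 ± 194 CPM in control_EV (SD, n = 3 for both). miR-379-5p, from the Dlk1-Meg3 imprinted locus, had 93.3 ± 18.1 and miR-10b-5p 520.6 ± 98.5 CPM in SIX2_EV, against 71.6 ± 7.52 and 536.5 ± 110.5 CPM in control_EV (SD, n = 3 for both).

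Other miRNAs of the pathways in which miR-181 acts were counted by list, with forms summed. By edgeR 0 members of any list passed, as did 0% of all 299 tested names, while 34 names (11.4%) had an unadjusted p under 0.05. The median log2 fold change of all names was -0.27, so negative values prevailed over all names and not only in the lists. With mature reads as library size that median was 0.02. Of 15 miRNAs of Toll-like receptor and NF-kB signalling, 14 were listed and 12 tested, 5 with positive and 7 with negative values (median -0.09, and 1 with an unadjusted p under 0.05). The most abundant was miR-21-5p, at 49473 ± 14541 CPM in SIX2_EV, against 57545 ± 4854 CPM in control_EV (SD, n = 3).

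Of 20 miRNAs acting on mitochondria, apoptosis or alpha-synuclein, 16 were listed and 14 tested, 1 with a positive and 13 with negative values (median -0.34, and 1 with an unadjusted p under 0.05). miR-30e-5p, the most abundant, had 3356 ± 744 CPM in SIX2_EV, against 3724 ± 484 CPM in control_EV (SD, n = 3). The miR-23a and miR-24 cluster, a separate locus near Mir181c and Mir181d on chromosome 8, had 5 of 6 members tested, all 5 with negative values (median -0.38). Reads were summed by name here, so they were not assigned to that locus. Its most abundant member, miR-23a-3p, had 2058 ± 452 CPM in SIX2_EV, against 2543 ± 484 CPM in control_EV (SD, n = 3).

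Since miR-181 is found in lymphoid, myeloid and neural cells, markers of these were counted beside it. Myeloid and lymphoid markers, all 5 tested and all 5 with negative values (median -0.65), summed to 3384 to 5424 CPM in SIX2_EV and 5359 to 6077 CPM in control_EV, led by miR-142-5p. Of 7 neuronal markers, miR-124-3p and miR-9-3p were not among the rows analysed here, and the 5 listed summed to 2065 to 3047 CPM in SIX2_EV and 2327 to 3152 CPM in control_EV. They were led by miR-7a-5p, at 2196 ± 362 CPM in SIX2_EV, against 2236 ± 592 CPM in control_EV (SD, n = 3), and all 3 neuronal markers tested had negative values (median -0.73). Red blood cell and serum markers, led by miR-451-5p, summed to 13968 to 21406 CPM in SIX2_EV and 8814 to 29196 CPM in control_EV, with 1 positive and 2 negative values among 3 tested (median -0.31). Beside these medians, that of all 299 tested names was -0.27, and it was 0.02 with mature reads as library size. What part the cells of origin have in the miR-181 values was not tested.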

How the data were processed

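Small RNA was sequenced from 6 libraries, 3 per group. Libraries were made from Trizol-extracted RNA with a TruSeq small RNA kit, per the labels' protocols. ACGT101-miR was used to discard adapter dimers, junk, common RNA families and repeats, per the same labels. The settings, the genome build and the miRBase release were not given in the sources used here. One deposited table holds values per sequence and locus under headers marked raw and norm. The raw values were taken here as estimated counts, and the norm values as the authors' normalized signal. The headers give no factor. The median ratio of normalized to raw values, computed here for each library over rows with more reads, ran from 0.2267 to 3.3986.

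Rows of the same name and sequence were summed and rounded. All features were compared with edgeR 4.0.16 (quasi-likelihood, TMM, filterByExpr, Benjamini-Hochberg at 0.05; R 4.3.3), with DESeq2 1.42.0 and limma 3.58.1 as alternatives. SE is the log2 fold change over the root of the F statistic. Forms were also summed by name without species prefix or suffix. Simulated counts were used to test the edgeR script. Every pair of replicates differed by more than counting noise (lowest chi-square over degrees of freedom 42.7). Sequences and GRCm38.p6 positions are RefSeq's, and host genes GENCODE M21's. Members, lists and tests were chosen with earlier results of these data known. Named features are all members, the most abundant tested miRNA of each list, and the 5 features of at least 10 CPM most correlated with miR-181a-5p. Outside this rule, miR-183-5p and let-7b-5p were named after their values were seen. List names were matched without species prefix, 4 of them under their rat name such as miR-451-5p.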

Additional observations from a re-analysis of the deposited data

How the results depend on the processing

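No miR-181 feature or summed form passed the threshold under any alternative run. The positive log2 fold change of miR-181a-5p was reversed with total counts, at -1.08 as a feature (adjusted p 0.406, edgeR) and -1.08 with forms summed (adjusted p 0.416, edgeR), where all tested features also moved (median -1.54). In the other 19 and 14 alternatives it stayed positive, from 0.11 to 0.67 and from 0.15 to 0.70, both lowest without SIX2_EV replicate 1, with adjusted p over all alternatives of 0.251 to 0.979 and 0.244 to 0.999. miR-181b-5p stayed negative in all 20 and 14, from -2.24 to -0.53 and from -2.28 to -0.56. With annotated ends only, by the deposited suffixes, it had no value. Over all features DESeq2 called 20 and over all summed names 14, against 0 in edgeR. The SIX2_EV minus control_EV difference in the miR-181b-5p to miR-181a-5p log2 ratio stayed negative, from -1.63 to -0.73. It was smallest without SIX2_EV replicate 1. The difference for miR-181a-5p to miR-21-5p stayed positive, from 0.31 without SIX2_EV replicate 1 to 1.01 with replicates 1 and 2 alone. The log2 share difference of longer miR-181a-5p forms, 0.52, ranged from -0.24 to 1.28 when 1 library was left out, reversed without control_EV replicate 2, and came to 1.32 with replicates 1 and 2 alone. The labels state no pairing, so the numbers were not taken as pairs. Same-numbered libraries correlated in their deviations at 0.209, 0.0669 and 0.673, and differently numbered ones at -0.668 to 0.623. With so few libraries these correlations cannot settle whether the numbers are pairs. The fit with the replicate block gave 0.31 for miR-181a-5p and -0.91 for miR-181b-5p, with 0 calls. Scaling by mature reads, leaving out the copied form, and replicates 1 and 2 alone for sums and ratios were added after seeing the data. The 8 and 12 reads of miR-181b-5p in SIX2_EV replicates 1 and 2 limit the precision of its share there.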
